A study of Homo sapiens with 22 samples.

Results

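The nuclear genes for the subunits of oxidative phosphorylation were followed through 3 chromatin and RNA readouts in THP-1, a human monocytic leukaemia line. They were the protein-coding nuclear genes of the RefSeq table whose symbols begin with NDUFA, NDUFB, NDUFC, NDUFS or NDUFV (not NDUFAF), with UQCR, with ATP5 or with COX4 to COX8, together with SDHA, SDHB, SDHC, SDHD and CYC1. The rule found 89 of 20037 protein-coding genes, 38 of complex I, 4 of complex II, 10 of complex III, 17 of complex IV and 20 of complex V. It reads symbols alone, so the genes formerly called NDUFA4 and NDUFA4L2, which carry other symbols in that table, are not included. The 89 contain 2 readthrough genes, ATP5MF-PTCD1 and NDUFC2-KCTD14, which share a gene end with ATP5MF and NDUFC2.

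THP-1 cells were infected with a lentivirus that carried a control hairpin (control) or a hairpin against QKI5 (knockdown), and both groups were therefore infected cells. The study compared chromatin immunoprecipitation (ChIP) of trimethylated histone H3 lysine 4 (H3K4me3), which marks active promoters, and of RNA polymerase II (Pol II), and crosslinking immunoprecipitation (CLIP) of RNA with an antibody against QKI5, the nuclear isoform of an RNA-binding protein. There were 22 samples, and each of the 6 deposited peak lists merged 2 replicates of one assay and condition. No value per replicate was analysed here, so no difference between control and knockdown below has a replicate check or a test, sequencing depth is unknown, and nothing below is a level of RNA or protein.

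Oxidative phosphorylation passes electrons from NADH (complex I) and succinate (complex II) through complexes III and IV to oxygen, and ATP synthase (complex V) uses the resulting proton gradient to make ATP. All subunits of complex II and most of the others are encoded in the nucleus, while a few core subunits of the other complexes come from mitochondrial DNA. The nuclear genes are mostly housekeeping genes with CpG-rich promoters, in which sites for NRF1, ETS factors such as GABP, YY1 and Sp1 are well known, but some subunits, above all of complex IV, have isoforms limited to muscle, lung or testis.

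The promoter sequences that carry the main contrasts are shown first (RefSeq promoters, GRCh38.p14, 250 bases before to 50 bases after a listed start, written 5′ to 3′ on the strand of the gene). Capitals mark every exact match on either strand to the letters searched, which were GCGCATGCG for NRF1, CCGGAAG for ETS factors, AAGATGGC for YY1 and GGGCGG for Sp1. NDUFA5 and COX7A2L are shown at an outer and an inner start, because the marks lay over the inner start alone. COX6A2, the muscle isoform of a complex IV subunit, stands for the members with no mark at all. ATP5ME, NDUFA7 and NDUFB10 are the members with NRF1 and ETS letters, YY1 letters and Sp1 letters, respectively, that had the widest control Pol II peak.
NDUFA5 outer start, chr7:123601602-123601901, minus strand: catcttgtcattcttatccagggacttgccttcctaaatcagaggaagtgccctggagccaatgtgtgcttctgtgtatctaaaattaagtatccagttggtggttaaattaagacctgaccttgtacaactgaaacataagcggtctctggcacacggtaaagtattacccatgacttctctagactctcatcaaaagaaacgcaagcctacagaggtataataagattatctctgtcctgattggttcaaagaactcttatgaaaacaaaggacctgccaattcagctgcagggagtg
NDUFA5 inner start, chr7:123557769-123558068, minus strand: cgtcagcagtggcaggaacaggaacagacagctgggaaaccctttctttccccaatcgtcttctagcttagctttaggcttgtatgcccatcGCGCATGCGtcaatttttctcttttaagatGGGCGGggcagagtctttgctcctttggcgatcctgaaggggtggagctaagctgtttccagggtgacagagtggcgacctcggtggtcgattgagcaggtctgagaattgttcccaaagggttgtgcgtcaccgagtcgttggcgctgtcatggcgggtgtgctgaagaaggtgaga
COX7A2L outer start, chr2:42368908-42369207, minus strand: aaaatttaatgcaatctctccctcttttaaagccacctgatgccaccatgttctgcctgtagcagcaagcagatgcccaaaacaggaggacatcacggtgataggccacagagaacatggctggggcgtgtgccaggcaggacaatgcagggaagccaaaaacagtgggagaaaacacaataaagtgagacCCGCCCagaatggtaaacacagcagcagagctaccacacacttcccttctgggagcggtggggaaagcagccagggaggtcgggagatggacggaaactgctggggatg
COX7A2L inner start, chr2:42361168-42361467, minus strand: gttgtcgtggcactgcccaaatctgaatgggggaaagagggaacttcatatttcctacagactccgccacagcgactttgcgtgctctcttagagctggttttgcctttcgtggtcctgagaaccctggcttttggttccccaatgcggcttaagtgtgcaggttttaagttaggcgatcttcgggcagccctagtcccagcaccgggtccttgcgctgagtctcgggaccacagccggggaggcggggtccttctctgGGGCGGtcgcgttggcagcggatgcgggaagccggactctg
COX6A2, chr16:31428311-31428610, minus strand: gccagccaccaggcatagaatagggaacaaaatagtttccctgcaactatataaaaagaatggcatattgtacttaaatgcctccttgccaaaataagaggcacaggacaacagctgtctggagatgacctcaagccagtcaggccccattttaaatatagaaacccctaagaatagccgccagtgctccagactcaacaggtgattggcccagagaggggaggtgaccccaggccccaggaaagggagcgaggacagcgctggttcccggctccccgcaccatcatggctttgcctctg
ATP5ME, chr4:674227-674526, minus strand: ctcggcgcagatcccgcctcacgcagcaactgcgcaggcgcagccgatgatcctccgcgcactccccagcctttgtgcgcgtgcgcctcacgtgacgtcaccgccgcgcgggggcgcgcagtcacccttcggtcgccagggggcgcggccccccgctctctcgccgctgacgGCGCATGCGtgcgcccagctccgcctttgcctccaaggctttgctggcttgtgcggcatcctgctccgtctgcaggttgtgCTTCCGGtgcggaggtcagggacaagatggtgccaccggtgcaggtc
NDUFA7, chr19:8321326-8321625, minus strand: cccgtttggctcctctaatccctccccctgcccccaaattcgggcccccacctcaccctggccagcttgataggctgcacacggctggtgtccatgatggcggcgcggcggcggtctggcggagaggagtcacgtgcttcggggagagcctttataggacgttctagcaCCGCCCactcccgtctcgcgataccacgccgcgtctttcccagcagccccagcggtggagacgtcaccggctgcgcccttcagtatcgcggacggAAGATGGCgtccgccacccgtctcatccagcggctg
NDUFB10, chr16:1959288-1959587, plus strand: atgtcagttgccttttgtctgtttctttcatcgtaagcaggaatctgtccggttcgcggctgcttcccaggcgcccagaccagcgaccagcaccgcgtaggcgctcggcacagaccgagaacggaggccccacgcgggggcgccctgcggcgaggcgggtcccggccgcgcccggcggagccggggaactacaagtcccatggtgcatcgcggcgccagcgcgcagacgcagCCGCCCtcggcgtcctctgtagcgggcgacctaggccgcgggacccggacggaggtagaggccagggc
The NDUFA5 promoter holds 3 CpG dinucleotides at the outer start and 15 at the inner start, where the letters of NRF1 and Sp1 both occur. COX7A2L has 6 CpGs at the outer and 19 at the inner start. COX6A2 has 5 CpGs and none of the 4 elements, whereas ATP5ME has 37, NDUFA7 30 and NDUFB10 39.

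In control, 21953 peaks of H3K4me3, 33370 of Pol II and 7337 of QKI5 CLIP were listed, and in knockdown 21358, 35094 and 669. At their gene ends, 6 of 9 monocytic markers carried H3K4me3 in both lists and 5 carried Pol II, while FCGR1A and MPO had neither mark. The epithelial markers EPCAM, KRT8, KRT18 and CDH1 and the liver marker ALB had no peak of either mark in any list. Of 3 T-cell markers CD8A had H3K4me3 in both lists. CD79A, a B-cell marker, had H3K4me3 in both lists and Pol II in control alone. Of 3 erythroid markers ALAS2 had Pol II in knockdown alone, and of 3 muscle markers CKM had Pol II in both lists.

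H3K4me3 was present at the ends of most respiratory chain genes, the same genes in both conditions. A gene-end peak, defined as a peak within 1 kb of either outer end of the gene, was found in both lists at 78 of the 89 genes (87.6%, exact 95% binomial interval 79.0 to 93.7, counting error only), where 66.6% of all protein-coding genes had one in both. The same 78 make up each list, against 67.2% of all genes in control and 67.4% in knockdown. No member had H3K4me3 at a gene end in one list alone. Of all genes with a peak in either list, 0.815% had it in control alone and 1.15% in knockdown alone. The mark covered 37 of 38 genes of complex I, 4 of 4 of complex II, 9 of 10 of complex III, 10 of 17 of complex IV and 18 of 20 of complex V. The 11 genes without a gene-end peak were NDUFA5, UQCRHL, COX7A2L, COX7A2, COX7B2, COX8C, COX6A2, COX7A1, COX4I2, ATP5MC2 and ATP5MGL, so complex IV held most of them.

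At 4 of those 11 genes the mark lay over a start inside the outer gene span, a comparison added after the values were seen. NDUFA5, an accessory subunit of complex I, had no peak of either mark at its outer ends. At its inner start, 43833 bp downstream of the outer one, H3K4me3 was 4097 bp wide in control and 3717 bp in knockdown, and Pol II 1941 and 1557 bp. COX7A2L, a factor of supercomplex assembly, had H3K4me3 of 3742 and 3647 bp and Pol II of 3227 and 3260 bp over the start 7740 bp inside. COX7A2, the widely expressed counterpart of the muscle subunit COX7A1, had H3K4me3 of 4992 and 5105 bp over a start 6497 bp inside. ATP5MC2, which encodes the proton-carrying c subunit of ATP synthase, had H3K4me3 of 2632 and 3154 bp over starts 5093 to 6004 bp inside. Counting listed starts as well as gene ends, 82 of 89 members carried both marks in both lists.

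The 7 genes that remained without H3K4me3 at a gene end or listed start were mostly isoforms known for restricted tissues. They were COX7B2 and COX8C, known from testis, COX6A2 and COX7A1, known from striated muscle, COX4I2, known from lung, and UQCRHL and ATP5MGL, close relatives of UQCRH and ATP5MG. Inside COX7B2, away from its ends, H3K4me3 covered 0.29% of the gene span in control and 0.0% in knockdown. Of 6 members known for restricted tissues, 5 were in this group. The exception was COX6B2, a testis isoform, whose H3K4me3 peak was the narrowest of all members in control, 2250 bp, and 2234 bp in knockdown. That peak also touched GARIN5B, so the mark cannot be assigned to COX6B2 alone. Here and below, a peak touches another gene when it lies within 1 kb of either end of that gene.

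Where the mark was present, it began upstream of the start and reached further into the gene. At the outermost listed start of 65 members the control H3K4me3 peak had a median extent of 1397 bp upstream and 2708 bp downstream, and in knockdown 1363 and 2463 bp. Over 10512 genes the control medians were 1294 and 2428 bp. Pol II was nearly even around the start, with medians of 1018 bp upstream and 1066.5 bp downstream in 64 members in control and 1125 and 1129 bp in 65 members in knockdown.

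**Figure D1:**
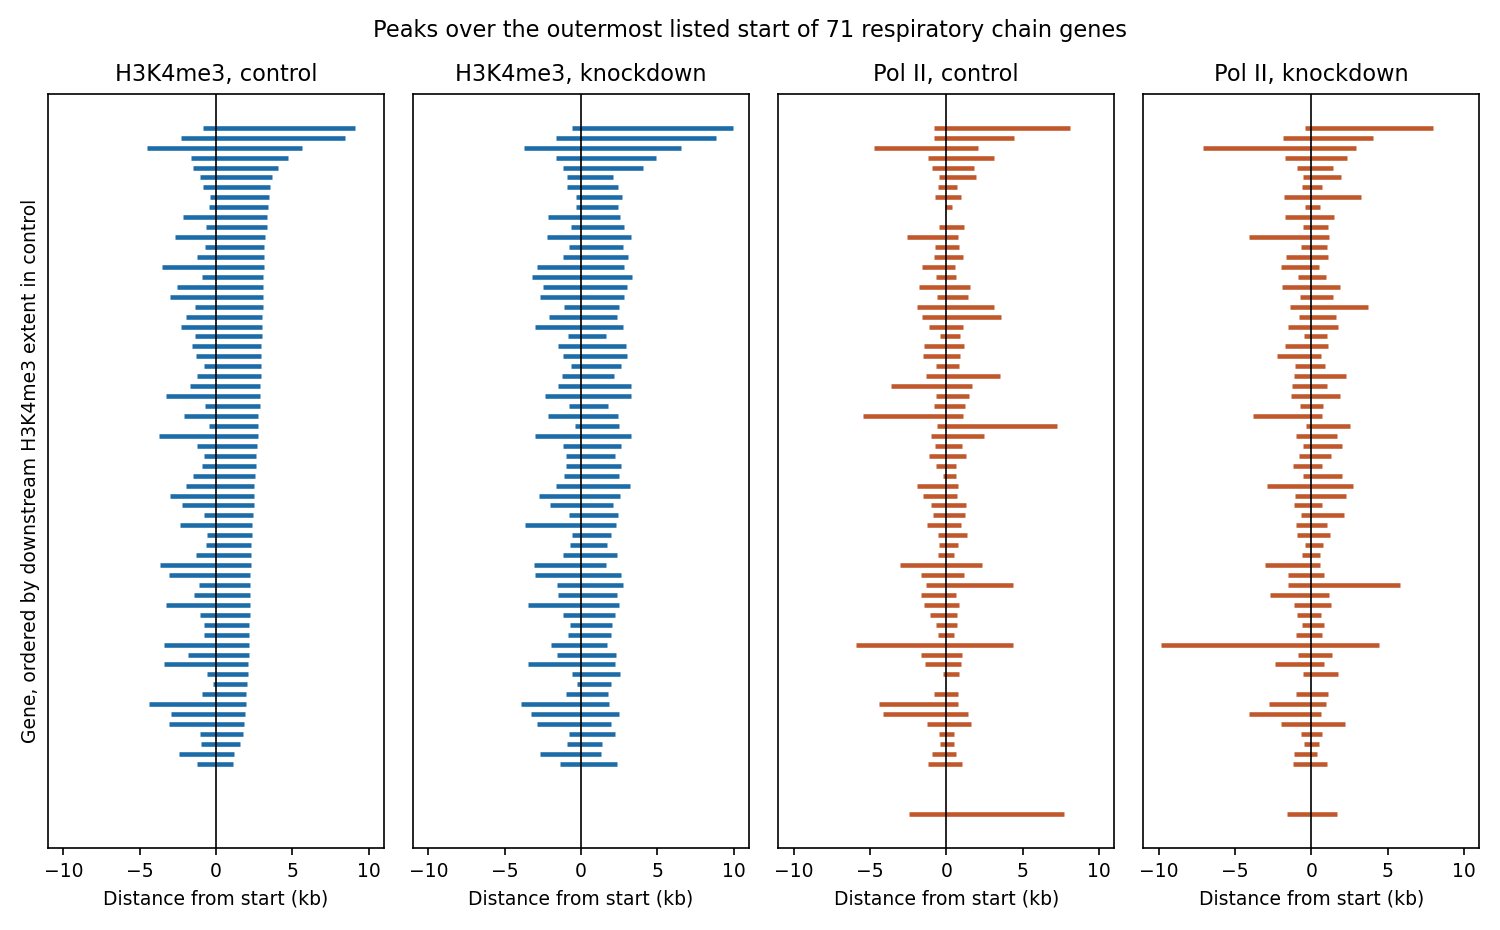
Peaks over the outermost listed start of the 71 members with a promoter entry, as distance from the start in kb (downstream to the right). Each row is 1 gene, in the same order in all 4 panels, and each bar is the deposited peak over that start. H3K4me3 bars reach further downstream (median 2708 bp in control) than upstream (1397 bp), and rows without a bar have no peak over that start.

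H3K4me3 peaks at these genes were more often narrower than wider in knockdown, and most differences were small. Over 78 members the widest gene-end peak had a control median of 4396.5 bp and a knockdown median of 3955.5 bp, against 3871 and 3731 bp over all genes with a peak. It was narrower in knockdown at 54 of 78 members (69.2%) and wider at 24 (30.8%), where 57.8% of all genes were narrower and 41.9% wider. The median log2 ratio of knockdown to control width was -0.09 for members and -0.04 for all genes. The direction was the same and the member shift was larger, a difference that was not tested. A width ratio of at least 1.5 was reached by 2 members upward, where 1.96% of all genes did, and by 3 downward, where 2.22% did.

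In complex I, 25 of 37 peaks were narrower in knockdown. NDUFS4, an accessory subunit of the NADH-oxidizing arm, went from 4362 bp (chromosome 5, 53559255 to 53563616) to 2454 bp, a log2 ratio of -0.83, the smallest of all members. NDUFA3, an accessory subunit, had the largest ratio, from 3982 to 6568 bp (log2 0.72), and in knockdown alone that peak also touched OSCAR and TFPT. NDUFV3, the small flavoprotein subunit, followed, from 2366 to 3692 bp (log2 0.64), and shared its peak with WDR4 in both lists. NDUFB9 had 4183 bp in control against 5483 bp (log2 0.39). NDUFC1 (10734 and 10451 bp) and NDUFB10 (9963 and 10554 bp) had the widest complex I peaks. The NDUFC1 peak also touched NAA15, and the NDUFB10 peak the ribosomal protein gene RPS2 and RNF151.

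Complex II, which also works in the citric acid cycle, differed little between the lists. At SDHB, its iron-sulfur subunit, the widths were 3557 and 3598 bp. SDHC, a membrane anchor, had 3529 and 3898 bp, and SDHD, the other anchor, 5898 and 5503 bp. SDHA, the flavoprotein that oxidizes succinate, had 4783 and 3797 bp, but its widest peaks of the 2 lists lay at different places and did not overlap.

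In complex III, 6 of 9 peaks were narrower. UQCRFS1, the Rieske iron-sulfur protein, went from 4677 to 2989 bp (log2 -0.65), and CYC1, which encodes cytochrome c1, from 4631 to 3907 bp. UQCRQ was wider, 3376 against 4360 bp (log2 0.37). UQCRH, the hinge protein, had one of the 3 widest control peaks, 10157 bp, and 10227 bp in knockdown, shared with LRRC41.

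Complex IV was the only complex with all of its gene-end H3K4me3 peaks narrower in knockdown, 10 of 10, with a median log2 ratio of -0.17. Peaks over inner starts are not among the 10. Of these, COX7A2 was wider in knockdown (4992 and 5105 bp) and COX7A2L narrower (3742 and 3647 bp). COX6B1 showed the largest difference, from 3604 to 2583 bp (log2 -0.48), then COX8A, from 3868 to 3010 bp (log2 -0.36). Each of the 10 differed by less than 1.5 times. COX4I1, a subunit needed for assembly of the enzyme, had the widest peak of the complex, 6478 and 6320 bp. The order of complexes was not tested.

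In complex V, 11 of 18 peaks were narrower and 7 wider. ATP5ME, a membrane subunit, went from 5549 to 3634 bp (log2 -0.61), and ATP5F1B, the catalytic beta subunit, from 4730 to 3619 bp (log2 -0.39). ATP5PD, a subunit of the peripheral stalk, was wider, 4709 against 5945 bp (log2 0.34). ATP5F1D, the delta subunit of the rotor, had the widest H3K4me3 peak of all members in control, 11522 bp, and 10692 bp in knockdown, and it touched CBARP.

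Pol II was listed at a gene end of 83 members in control, where 59.6% of all genes had it, and 81 in knockdown, where 61.6% had it. It was there in both lists at 80 (89.9%, interval 81.7 to 95.3), where 57.6% of all genes had it in both. It was in control alone at 3 members and in knockdown alone at 1. Among all genes with a peak in either list the shares were 3.01% and 6.25%. The member order turned round, to 1 and 3, when a peak had to overlap a gene end, and was 0 and 3 with peaks of at least 1000 bp. All 5 members without Pol II in either list, COX7B2, NDUFA5, COX6A2, COX7A1 and COX4I2, also lacked H3K4me3 at their ends.

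COX7A2L had a control peak of 746 bp (chromosome 2, 42334507 to 42335252) at its 3′ end, 23716 bp from the nearest knockdown peak. COX8C had a control peak of 752 bp (chromosome 14, 93347646 to 93348397), which lay within UNC79, 3968 bp from a knockdown peak. ATP5MGL had a control peak of the narrowest width in the lists (chromosome 22, 42640709 to 42641209), within CYB5R3. UQCRHL had the single knockdown case, with peaks of 2384 bp (chromosome 1, 15805549 to 15807932) and 647 bp, and the wider lay 1124 bp from a control peak. None of these 4 genes had H3K4me3 at a gene end. Under a stricter rule, which asks that the other list be empty for 5 kb around the gene ends, COX7A2L and ATP5MGL still counted as control alone, and UQCRHL did not count.

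Each member with H3K4me3 at a gene end also carried Pol II at a gene end in the same list. H3K4me3 without Pol II was found at 0 of 89 members in control (interval to 4.06%) and 10.3% of all genes. Both marks were in both lists at 78 members, where 55.6% of all genes had them. Pol II without H3K4me3 was found at 5 members in control (5.62%) and 3 in knockdown (3.37%), where 2.69% and 2.87% of all genes had it. The marks overlapped by at least 1 bp at 78 members in each list.

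The peaks at these genes were often shared with another gene. At 42 of 78 members (53.8%) the widest control H3K4me3 peak was also the widest gene-end peak of at least 1 other gene, against 30.9% of all genes with a peak. Either end of the other gene counted, so a shared peak need not be a shared promoter. The 42 include ATP5MF, NDUFC2 and their readthrough genes, each sharing with its partner alone. In knockdown the shares were 55.1% and 30.8%. Some pairs are named here, chosen after their values were seen. ATP5PF, a stalk subunit of ATP synthase, shared its peak with GABPA, the DNA-binding subunit of GABP. NDUFS6 shared with MRPL36 and NDUFB5 with MRPL47, both encoding proteins of the mitochondrial ribosome. SDHD shared with TIMM8B, a factor of mitochondrial protein import, NDUFB10 with RPS2, and NDUFA7 with RPS28. At such genes a change in width cannot be assigned to one gene of the pair.

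Pol II peaks varied in width far more than H3K4me3 peaks, in both directions. The widest gene-end peak had a median of 2637 bp in control (83 members) and 2848 bp in knockdown (81 members), against 2276 and 2361.5 bp over all genes. It was wider in knockdown at 51 of 80 members (63.8%) and narrower at 29 (36.2%), where 56.8% of all genes were wider and 42.6% narrower. The median log2 ratio was 0.16 for members and 0.08 for all genes. At least 1.5 times wider were 8 members, where 17.4% of all genes were, and at least 1.5 times narrower 9, where 9.9% were. At 5 of the 80 members, ATP5MK, COX7A2, NDUFB7, NDUFV2 and NDUFV3, the widest peaks of the 2 lists did not overlap, and without them 8 members were wider and 6 narrower by that margin.

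**Figure D2:**
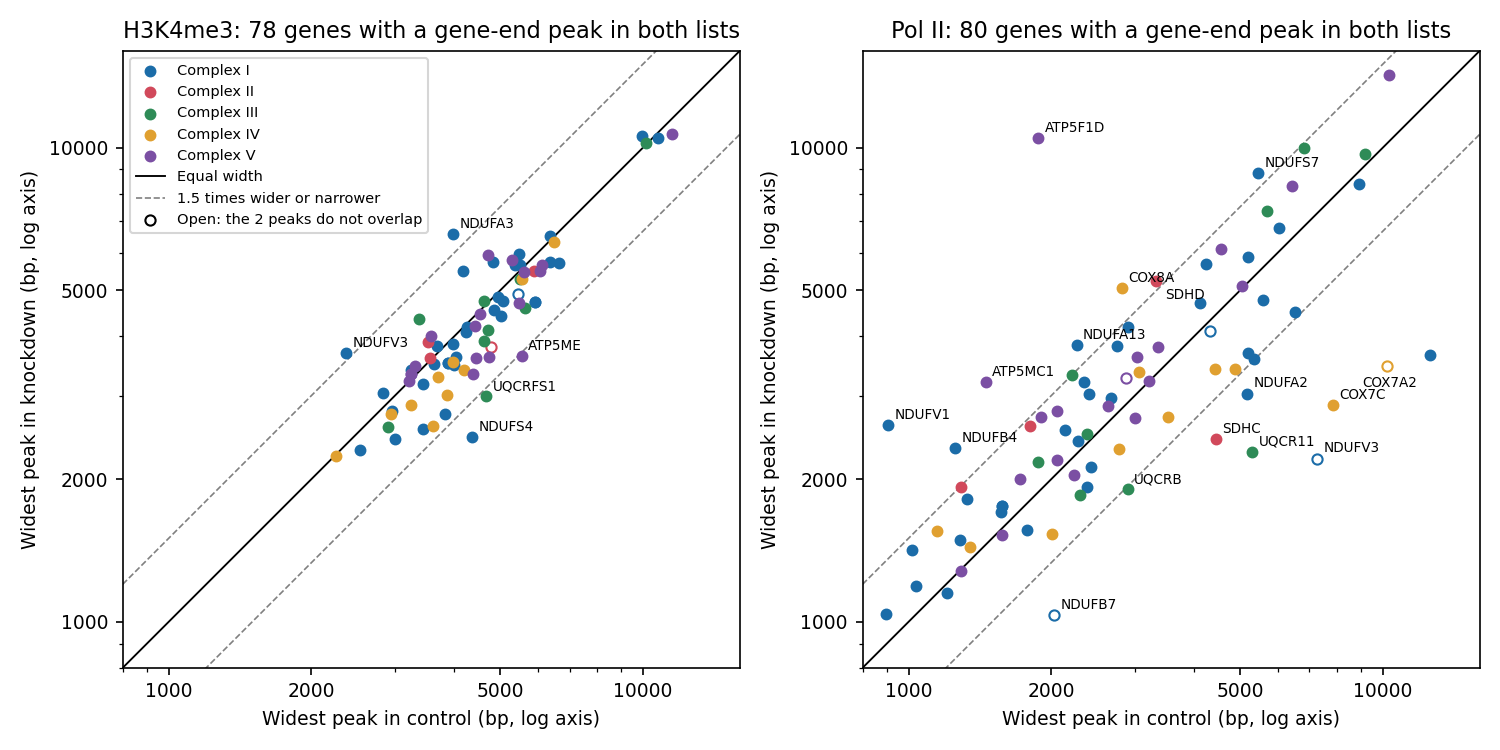
Width in bp of the widest gene-end peak in control (horizontal) and knockdown (vertical), on log axes, for members with a peak in both lists, coloured by complex, with open circles where the 2 peaks do not overlap. H3K4me3 points (78 genes) lie near the line of equal width, with 5 genes at or beyond 1.5 times, while Pol II points (80 genes) spread more widely, with 17 beyond it. Genes beyond 1.5 times are labelled, except 1 Pol II point.

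In complex I, 23 of 37 Pol II peaks were wider in knockdown. NDUFV1, the flavoprotein subunit that binds NADH, went from 906 bp (chromosome 11, 67606703 to 67607608) to 2595 bp (log2 1.52). NDUFB4 went from 1256 to 2324 bp (log2 0.89) at its 3′ end, and had 1089 and 1701 bp at its 5′ end. NDUFV3 went from 7275 to 2210 bp (log2 -1.72), but the control peak lay at the 3′ end. At its 5′ end NDUFV3 had 2214 bp in control and 2210 bp in knockdown, close to equal. The narrowest control peak among members with Pol II in both lists was at NDUFA9, 897 bp, and 1040 bp in knockdown.

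In complex II, 3 of 4 peaks were wider in knockdown. SDHB had 1291 and 1922 bp, SDHA 1807 and 2593 bp, and SDHD 3332 and 5241 bp (log2 0.65). SDHC went the other way, from 4442 to 2426 bp (log2 -0.87). In complex III, 6 of 9 were wider. UQCR11, a small accessory subunit, went from 5309 to 2284 bp (log2 -1.22), while CYC1 had 9182 and 9714 bp, a peak that in both lists also touched SHARPIN.

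In complex IV, 7 of 11 Pol II peaks were narrower in knockdown, with a median log2 ratio of -0.37. COX7C went from 7847 bp (chromosome 5, 86617354 to 86625200) to 2867 bp (log2 -1.45). In each list 1 peak lay within 1 kb of both gene ends. Pol II covered 100% of the COX7C span in control and 83.1% in knockdown, so only the control peak spanned the gene. COX7A2 went from 10188 to 3464 bp (log2 -1.56), but at different places. Its control peak of 10188 bp lay over both the outer and the inner start, where knockdown had separate peaks of 3324 and 5485 bp, and Pol II covered 73.2% of the gene span in control and 71.0% in knockdown. COX8A, one of the smallest subunits, was wider, 2814 against 5057 bp (log2 0.85), but that control peak lay at the 3′ end. At its 5′ end COX8A had 1683 bp in control, while the knockdown peak lay at both ends. Complex V leaned the other way, with 15 of 19 peaks wider in knockdown and none at least 1.5 times narrower.

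ATP5F1D had the largest Pol II ratio of all members. In control its widest peak covered 1879 bp of chromosome 19, 1244554 to 1246432. In knockdown it covered 10453 bp, 1245129 to 1255581 (log2 2.48). The knockdown peak also touched an end of MIDN, so this width is not that of ATP5F1D alone. ATP5MC1, another gene for the c subunit, went from 1456 to 3199 bp (log2 1.14), and the knockdown peak was not the widest gene-end peak of any other gene. The control peak lay wholly upstream of the ATP5MC1 start. Pol II covered 0.0% of the gene span in control and 47.9% in knockdown. ATP5ME had the widest control peak of complex V, 10279 bp, and the widest knockdown peak of all members, 14222 bp. In both lists that peak also touched PDE6B, MYL5 and SLC49A3.

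Members often had more than 1 Pol II peak at their ends, 43 of 83 (51.8%) in control and 33 of 81 (40.7%) in knockdown, against 30.4% and 31.7% of all genes. The genes are short, with a median length of 10198 bp for the 80 members with Pol II in both lists and 27646 bp for all such genes. Pol II peaks covered a median of 20.8% of the gene span in control and 22.9% in knockdown, against 7.01% and 7.39% for all genes. Among genes of up to 10 kb the medians were 38.3% and 47.9% for members and 39.8% and 44.5% for all genes. Among longer genes they were 13.1% and 15.1% for members, with a median length of 16616.5 bp, and 4.42% and 4.72% for all genes, with a median length of 40666.5 bp. Peaks covered the whole span in both lists at ATP5IF1, ATP5ME, UQCRQ, CYC1 and NDUFB10.

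The 3′ ends were examined separately after this was seen, for the 74 members whose strand is known. A Pol II peak within 1 kb of the 3′ end was listed at 48 members in control (64.9%) and 37 in knockdown, where 25.5% and 27.0% of all genes with a strand had one. It was in control alone at 13 of the 50 members with one in either list (26%) and in knockdown alone at 2 (4.00%). Among all genes the shares were 15.4% and 20.1%, the opposite order. At 5′ ends the difference was smaller, with Pol II at 68 of 74 members in control (91.9%) and 66 in knockdown (89.2%), where 59.4% and 61.5% of all genes had it.

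**Figure D3:**
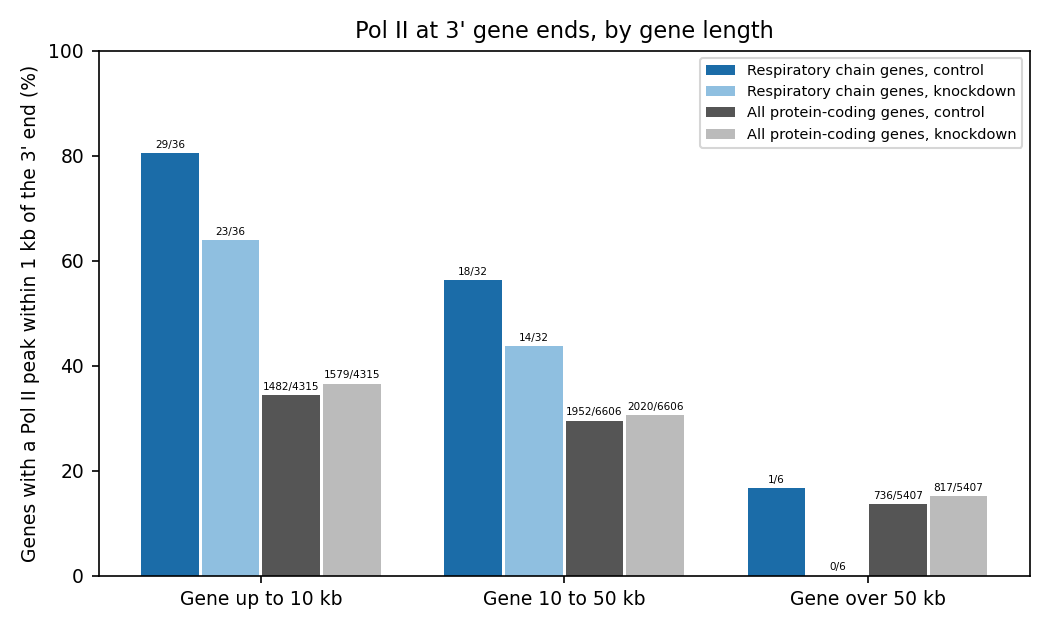
Share of genes with a Pol II peak within 1 kb of the 3′ end (percent, with the counts above each bar), by gene length, for members and all protein-coding genes in control and knockdown. Among genes of up to 10 kb, 29 of 36 members had such a peak in control and 23 of 36 in knockdown, while the share over all genes was slightly higher in knockdown.

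Gene length and the presence of Pol II were matched in part by looking at genes of up to 10 kb with a Pol II peak at the 5′ end. Of these, 29 of 35 members (82.9%) in control and 22 of 33 (66.7%) in knockdown also had one at the 3′ end, against 64.1% and 65.8% of all genes. In knockdown the members were thus near all genes of this length, and above them in control.

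The 13 genes with a 3′ peak in control alone were ATP5F1A, ATP5MF-PTCD1, ATP5MG, ATP5PD and ATP5PO of complex V, NDUFA3 and NDUFB9 of complex I, SDHA and SDHD of complex II, UQCR11 and UQCRFS1 of complex III, and COX7A2L and COX8C of complex IV. Their peaks were narrow, with a median of 1063 bp, and 3 had the narrowest width in the lists. The widest was at UQCRFS1, 2322 bp (chromosome 19, 29203654 to 29205975), 5244 bp from the nearest knockdown peak. At SDHD a control peak of 1332 bp (chromosome 11, 112096198 to 112097529) lay 3440 bp from a knockdown peak. At ATP5F1A, the alpha subunit of ATP synthase, a control peak of 1146 bp lay 203 bp from a knockdown peak of 7390 bp further downstream. Most of the others also lay close to a knockdown peak. The distance was 12 bp at SDHA, 445 at NDUFA3, 698 at ATP5MG, 768 at ATP5PO, 947 at ATP5MF-PTCD1 and 1179 at ATP5PD. It was 2623 bp at NDUFB9, and those of COX7A2L and COX8C are given above. The nearest knockdown peak lay downstream at 7 of the 13, upstream at 5, and overlapped at UQCR11. NDUFA1 and NDUFC1, the knockdown-alone cases, both overlapped a control peak.

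The result depended on the distance allowed. Within 500 bp, 20 of 46 members with a 3′ peak had it in control alone (43.5%, all genes 17.4%) and 2 in knockdown alone. Within 5 kb, 5 of 64 had it in control alone (7.81%, all genes 8.73%), and 3 in knockdown alone (4.69%, all genes 12.9%). At the widest distance the control-alone share was therefore no longer above that of all genes.

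Promoter letters were counted at the outermost listed start of the 71 members with an entry in the RefSeq promoter table, on both strands and each element on its own. The 18 members with no entry were not counted. NRF1 letters were in 9 of 71 promoters (12.7%, interval 5.96 to 22.7) and 2.76% of 15843 promoters of the same length. They occurred at ATP5F1C, ATP5ME, ATP5PF, COX6A1, NDUFA8, NDUFB4, NDUFS6, NDUFS7 and SDHD. ETS letters were in 20 (28.2% against 14.2%) and YY1 letters in 11 (15.5% against 3.86%). Sp1 letters, the commonest, were in 42 (59.2%), close to the 58.3% of all promoters.

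**Figure D4:**
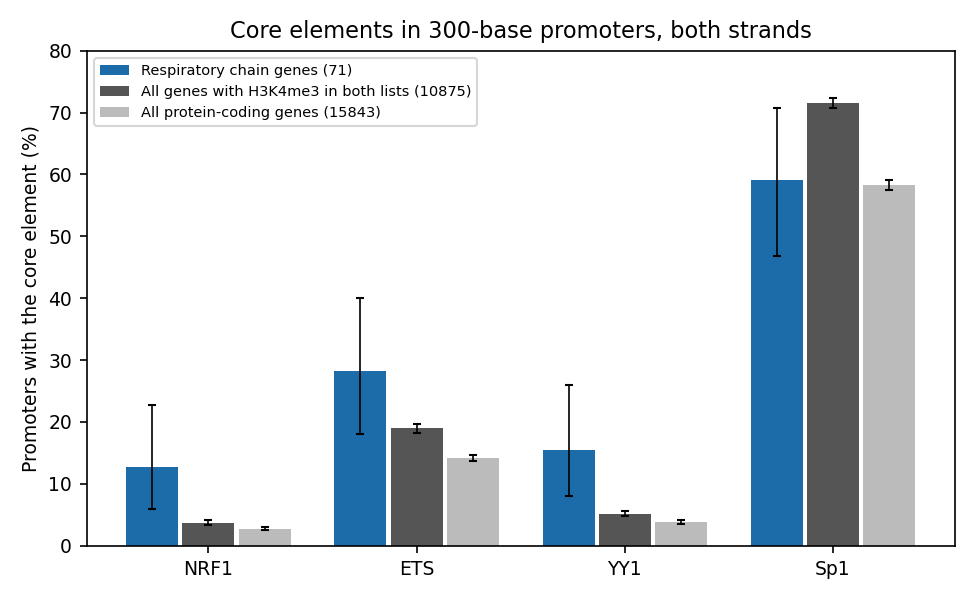
Percent of 300-base promoters that hold the core letters of each element on either strand, for 71 members, for all genes with H3K4me3 in both lists, and for all protein-coding genes, with exact 95% binomial intervals. The member bars are higher for NRF1 (12.7%), ETS (28.2%) and YY1 (15.5%), and for Sp1 (59.2%) the member bar lies near all genes.

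Among members with H3K4me3 in both lists the shares were 14.1% for NRF1, 31.2% for ETS and 17.2% for YY1, against 3.72%, 19.0% and 5.13% of all 10875 promoters of genes with the mark in both. For Sp1 the share was 64.1% (interval 51.1 to 75.7), which includes the 71.5% of those promoters. Promoters of genes with the mark held more CpGs. Members with H3K4me3 in both lists had between 10 and 42 CpGs, with a median of 24.5, and all genes with the mark a median of 27. Genes without it in either list had a median of 5. For the 7 members in the promoter table that lack the mark at their ends, CpGs were counted at the outermost listed start. The counts were 0 at COX7A2, 3 at NDUFA5, 5 at COX6A2, 6 at COX7A2L, 8 at COX7B2, 10 at COX8C and 21 at ATP5MC2. All listed starts of ATP5MC2 lie 5093 to 6004 bp inside its outer end and under H3K4me3 in both lists, so its count is that of a marked start. These matches describe letters in a window and are not evidence of binding.

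QKI5 CLIP rows were listed for these RNAs at shares near those of all genes. By gene identifier, 11 members had a control row (12.4%), where 13.9% of all protein-coding genes did, and 2 had a knockdown row (2.25%), where 1.84% did. By the symbol in the list there were 10 members in control, since ATP5IF1 is listed under its older symbol. The 16 control rows by symbol make 11 sites when adjoining rows are merged, and the 3 knockdown rows make 2. No member had a row in both lists. The members' 17 control rows by identifier had a median of 8 reads and a median log2 enrichment of 5.92, and all control rows 9 reads and 5.92. Among all genes, short ones had a row less often. Of members of up to 10 kb, 4 of 46 (8.70%) had a control row by identifier against 3.93% of all such genes, and of those of 10 to 50 kb 6 of 37 (16.2%) against 11.7%. Of the 6 members over 50 kb, 1 had a row (16.7%), against 25.9%.

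ATP5IF1, the inhibitor that keeps ATP synthase from running backwards, had the strongest row, with 23 reads (log2 enrichment 4.75, -log10 p 15.7, both as deposited, chromosome 1, 28238022 to 28238083, plus strand). It lay near the 3′ end of the gene and on a peak of each ChIP mark. UQCRH followed with 2 adjoining rows of 15 reads each, the stronger at 4.66 and 12.3 on the same scales (chromosome 1, 46306417 to 46306444). COX7B, a complex IV subunit, had 16 reads and a log2 enrichment of 3.28 (chromosome X, 77902710 to 77902766). UQCRC2, a core protein of complex III, had 13 reads (log2 3.38), and NDUFA10 10 reads (log2 4.92). These were the control rows with at least 10 reads.

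The other control rows held 7 to 9 reads, and several lay outside the gene they are listed under. ATP5MF-PTCD1 had a row of 9 reads (chromosome 7, 99424795 to 99424863) in the part that is also PTCD1. The rows at NDUFA9, of 7 reads, lay near its start. The NDUFA2 rows lay within 1 kb outside its span and inside TMCO6 on the other strand, the NDUFS6 row just outside its end, and rows of ATP5MG and NDUFB9 more than 10 kb outside. In all, 9 of the 17 control rows by identifier were inside the gene span. In knockdown, NDUFA5 had 2 adjoining rows of 6 reads (log2 6.53, chromosome 7, 123540856 to 123540923), the lowest read number in that list.

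**Figure D5:**
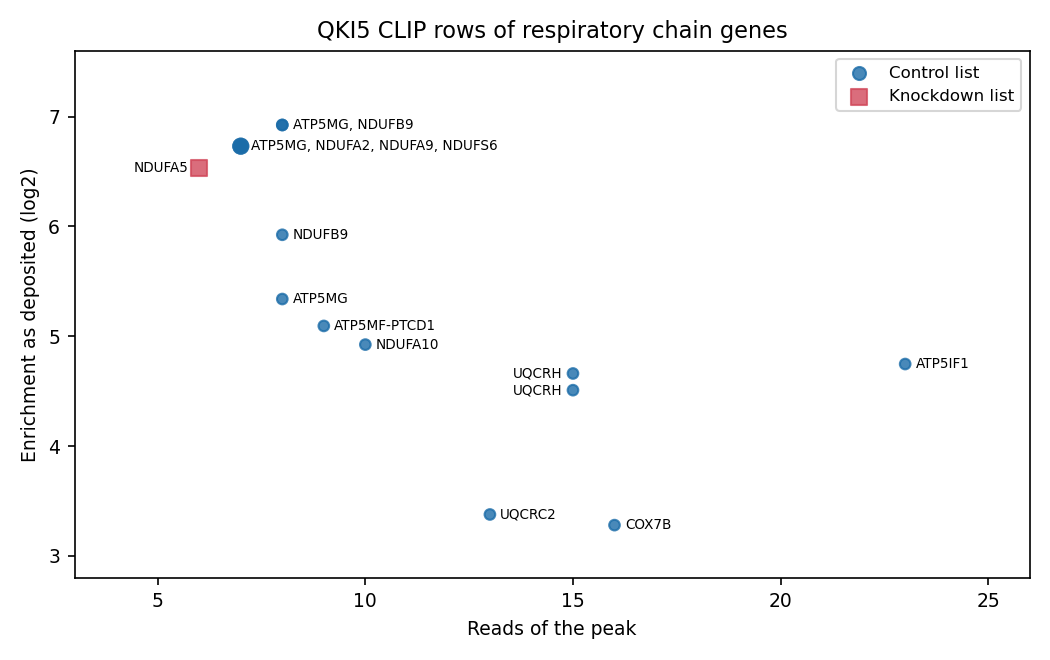
QKI5 CLIP rows listed for members, by reads (horizontal) and deposited log2 enrichment (vertical), with control rows as circles and knockdown rows as squares, larger where several rows coincide and 1 knockdown row not drawn. ATP5IF1 stands to the right at 23 reads, and the rows with the highest log2 enrichments hold only 6 to 8 reads.

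Nearly all related genes of the pathway had both marks in both lists, where 55.6% of all genes did and 87.6% of members. All 48 assembly factors, which build the complexes without staying in them, had H3K4me3 and Pol II in both lists, with median log2 width ratios of -0.01 for H3K4me3 and 0.11 for Pol II. All 13 enzymes of the citric acid cycle had both marks in both lists, with medians of -0.02 and -0.21. All 14 regulators of nuclear respiratory genes carried H3K4me3 in both lists and 13 carried Pol II, the exception being PPARGC1A, which encodes the inducible coactivator PGC-1alpha. All 6 carriers (cytochrome c and 5 transporters of the inner membrane) had both. Control CLIP rows, which 13.9% of all genes had, were listed for the assembly factors COA8, COX19, NDUFAF2 and TIMMDC1, for OGDH of the citric acid cycle, and for the regulators ESRRA, NRF1, PPARGC1B and TFAM, and a knockdown row for NDUFAF6.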

How the data were processed

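Per the series' design text, the authors made each list from both replicates of a group. Per the submitters' processing notes the build is GRCh38.p5 and HOMER was used, with no role given. Which aligner and caller were used, and how the inputs entered, is not given in the sources used here. The score in the authors' deposited ChIP lists is 1 at every peak, so width was the only value per peak. In the authors' deposited CLIP lists, which have no header, the columns were read from their values as -log10 p and log2 enrichment, and the last part of the peak name as reads.

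The RefSeq gene table used is of GRCh38.p14, and its coordinates served to place peaks and CLIP rows at genes and for gene lengths, covered spans and extents from starts. Peaks within 1 kb of an outer gene end were counted, and the widest was compared as a log2 ratio with a threshold of 1.5 times. Strand came from the promoter table (71 members) or from CLIP (3 members). Intervals are exact binomial, from scipy 1.17.1 with Python 3.11.15 and pandas 2.3.3, and cover counting error only. The code was tested on simulated data.

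Members with values were named by a fixed rule, which took genes in a single list, genes with no peak, genes with a CLIP row, the widest and narrowest peaks, the largest and smallest ratios, the SDH genes and CYC1, and members that share a peak. The members, gene lists and this rule were chosen with earlier results of these data known, and other genes were named after their values were seen. Results of 1 member and 1 marker gene are not reported here by name, though the counts include them.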

Additional observations from a re-analysis of the deposited data

How the results depend on the processing

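No paired analysis was possible because each list merges both replicates. H3K4me3 presence at member genes moved under none of the alternatives run. For H3K4me3 width, 5 members were at least 1.5 times narrower with summed widths, and 0 were wider and 0 narrower at 2 times. For Pol II presence, control alone held 1 member and knockdown alone 3 when a peak had to overlap a gene end, and 0 and 3 with peaks of at least 1000 bp. Knockdown alone held 0 within 5 kb, with no other peak within 5 kb, at the 5′ end only, and at any listed start. For Pol II width, 4 members were narrower at the 5′ end only, and 3 were wider and 5 narrower at 2 times. At 3′ ends, control alone held 20 within 500 bp and 5 within 5 kb, where both lists held 56. Knockdown alone at 3′ ends held 4 with peaks of at least 1000 bp and 0 when any overlap counted as shared. CLIP by symbol gave 1 control and 0 knockdown members at a -log10 p of at least 10, 4 and 1 with at least 10 reads, and 1 knockdown member at a log2 enrichment of at least 4. By identifier, which adds ATP5IF1, the control numbers were 2 and 5. ETS letters 1 base longer were in 14.1% of member promoters, against 6.16% of all promoters. Sp1 letters 3 bases longer were also in 14.1% of member promoters, but in 22.1% of all promoters. Among genes with H3K4me3 in both lists, these longer Sp1 letters were in 15.6% of members (interval 7.76 to 26.9) and 28.2% of all promoters. Within the 150 bases nearest the start, Sp1 letters were in 45.1% of member promoters and 48.6% of all promoters. The cause of these moves was not tested. The other 94 values under alternatives stayed within 1.5 times of the count reported, within 0.1 of a log2 median or inside the interval of a share, and no value changed sign.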

Other observations

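Subunits encoded by mitochondrial DNA were looked at after their values were seen. For 6 of them, the control CLIP row with most reads held more reads than any row of the nuclear members. In the control list the highest read number was 633 at MT-CO2, a core subunit of complex IV, with a log2 enrichment of 5.97, and 255 at MT-ND5, a membrane subunit of complex I, with 5.49. MT-CO3 had 127 reads (log2 3.29), MT-ATP6 116 (3.87), MT-ND4 73 (3.04) and MT-ATP8 45 (3.06). These 6 log2 values belong to the row with most reads of each subunit. The median of 5.92 over all control rows of the nuclear members by identifier is an unlike measure. In the knockdown list MT-ND4 alone of these 6 had a row, with 24 reads and a log2 enrichment of 3.25. The highest of the nuclear members was 23 reads, at ATP5IF1.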
